A study of Mus musculus with 24 samples.

Results

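The 34 genes described here are the listed genes of cholesterol synthesis, uptake and efflux, taken as a list of symbols by a rule that uses no measured value, although the list was drawn up with earlier results of these data known. They were 20 synthesis enzymes, 9 genes of SREBP control, sterol transport and storage, and 5 genes of LXR signalling and efflux, out of 52636 gene models in each library. All 34 were found and all 34 passed the filter on low counts, which left 14435 genes for testing. Cells make cholesterol from acetyl-CoA through mevalonate, squalene and lanosterol, and the genes of this route are switched on together by SREBP transcription factors when sterols in the endoplasmic reticulum run low. SCAP carries SREBP out of the endoplasmic reticulum, while INSIG proteins hold both there when sterols are plentiful. Macrophages also take in much lipoprotein and cell debris, store the surplus as esters, and export it through ABCA1 and ABCG1 under control of the oxysterol receptor LXR.

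Macrophages differentiated in culture from mouse bone marrow were the source of all libraries. There were 4 groups of 6 libraries: Ninj1KO_Pam3 and WT_Pam3, stimulated with Pam3, and Ninj1KO_NoPrime and WT_NoPrime, kept in media only. Pam3 usually denotes a synthetic lipopeptide that activates the receptor pair TLR1 and TLR2, and Ninj1 encodes NINJ1, a membrane protein that ruptures the plasma membrane during lytic cell death. WT mice were C57BL/6, per the series' design text. The strain background of the Ninj1KO mice, the deleted part of Ninj1, the age of the animals and the dose and duration of Pam3 are not stated in the labels. Whether libraries of the same group stem from different mice or dishes is not stated either, so p-values here reflect spread between libraries that may be technical in part.

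Each library held 31302011 to 40663152 counted reads. Levels in CPM are counts scaled to library size multiplied by a TMM factor, the scaling factor that edgeR computed for each library. These factors were 0.8397 to 0.8621 in Ninj1KO_Pam3, 0.8131 to 0.8455 in WT_Pam3 and 1.17 to 1.203 in media libraries, so CPM levels are not scaled by library size alone. Ninj1 itself averaged 429 ± 25.7 CPM in Ninj1KO_Pam3 and 810.4 ± 176 CPM in WT_Pam3 libraries (SD, n = 6 each). In media it averaged 167 ± 9.68 CPM in Ninj1KO_NoPrime and 307 ± 15.7 CPM in WT_NoPrime libraries (SD, n = 6 each). There was no overlap between genotypes at either treatment. The counts thus show a lower Ninj1 level in the libraries labelled Ninj1KO (0.529 of WT after Pam3 and 0.543 in media) and no loss of the transcript, and Ninj1KO below is the label. All 8 macrophage markers were detected in every group. Xist had 6443 to 32151 counts in all 24 libraries and 4 Y-linked genes had 28 counts in total, at odds with the sex given for WT libraries, male. 1 library stood apart, WT_Pam3 replicate 5, in which 19 of the 34 sterol genes lay more than 0.3 log2 units from the median of the other 5 WT_Pam3 libraries. The shortest 1 in 4 genes by exon length were higher there than in the rest of its group (median 0.27 log2) and the longest 1 in 4 lower (median -0.31 log2). In the other 23 libraries these medians differed by -0.0775 to 0.131 log2. The main counts of sterol genes called, and part of the values of single genes, are therefore given with and without WT_Pam3 replicate 5. Other values include that library.

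Per unit of length, Apoe and Npc2 were the most abundant sterol transcripts in all 4 groups. In RPKM, a count scaled by gene length and by depth and adjusted by the authors' size factor, Apoe, which encodes an apolipoprotein that accepts exported cholesterol, averaged 2260.2 ± 201 in Ninj1KO_Pam3, 2891 ± 761 in WT_Pam3, 3325 ± 286 in Ninj1KO_NoPrime and 3444 ± 156 in WT_NoPrime libraries (SD, n = 6 each). Npc2, which hands cholesterol to NPC1 in the lysosome, averaged 386 ± 14.2, 419.6 ± 62.3, 436 ± 13.8 and 401 ± 12.9 RPKM in the same order of groups. The most abundant synthesis enzyme was Msmo1, ranked 3 of the 34 genes after Pam3 (152 ± 7.72 RPKM in Ninj1KO_Pam3 and 169 ± 5.19 RPKM in WT_Pam3) and 7 in media (51.8 ± 3.77 RPKM in Ninj1KO_NoPrime and 50.9 ± 2.06 RPKM in WT_NoPrime). The least abundant gene was Idi1 after Pam3 (1.66 ± 0.159 RPKM in Ninj1KO_Pam3 and 1.78 ± 0.302 RPKM in WT_Pam3). In media it was Ch25h (0.220 ± 0.0607 RPKM in Ninj1KO_NoPrime and 0.181 ± 0.0457 RPKM in WT_NoPrime). All further levels are CPM, which compare groups and not genes.

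Most enzymes of cholesterol synthesis were higher after Pam3 in both genotypes. Of the 20 enzymes, 15 rose and 5 fell in Ninj1KO macrophages, while 15 rose, 3 fell and 2 did not pass the test in WT macrophages. The median log2 fold change of the 20 enzymes was 1.85 in Ninj1KO and 1.997 in WT macrophages, beside -0.07 and -0.05 over all genes tested. Over all 34 sterol genes, 21 rose and 11 fell in Ninj1KO macrophages, and 21 rose and 8 fell in WT macrophages. A gene rose or fell where edgeR's quasi-likelihood test gave a Benjamini-Hochberg adjusted p under 0.05 over all genes tested. The response was broad: of all genes tested 85.0% passed in Ninj1KO macrophages (40.2% higher, 44.8% lower) and 84.8% in WT macrophages (40.6% higher, 44.2% lower). Passing the test therefore does not set the sterol genes apart, and the 15 of 20 enzymes that rose are to be read beside the 40.2% and 40.6% of all genes that rose. With WT_Pam3 replicate 5 left out, 22 sterol genes rose and 8 fell in WT macrophages, against 41.1% and 45.7% of all genes. Marker sums of some other cells also differed with Pam3, without overlap in Ninj1KO macrophages: 8 granulocyte markers summed to 48.7 to 57.0 CPM in Ninj1KO_Pam3 against 82.4 to 95.0 CPM in Ninj1KO_NoPrime libraries (1 marker rose and 6 fell). In WT macrophages they summed to 39.2 to 62.3 CPM in WT_Pam3 against 60.6 to 71.4 CPM in WT_NoPrime libraries. The 5 dendritic cell markers summed to 10.5 to 13.1 CPM in Ninj1KO_Pam3 and 9.50 to 13.7 CPM in WT_Pam3, against 5.67 to 7.04 CPM in Ninj1KO_NoPrime and 5.20 to 5.98 CPM in WT_NoPrime libraries. Of the 4 dendritic cell markers tested, however, 1 rose and 2 fell in each genotype, so the sum does not speak for the list. The 8 macrophage markers summed to 29628 to 31049 CPM in Ninj1KO_Pam3 and 31569 to 35619 CPM in WT_Pam3, against 26479 to 27156 CPM in Ninj1KO_NoPrime and 25919 to 27601 CPM in WT_NoPrime libraries. The most abundant markers dominate this sum. Of the 8 macrophage markers, 3 rose and 4 fell in Ninj1KO macrophages, and 4 rose and 4 fell in WT macrophages. The 4 erythroid and megakaryocyte markers summed to 85.4 to 106 CPM in Ninj1KO_Pam3 and 97.7 to 179 CPM in WT_Pam3 libraries. In media their sums were 35.5 to 44.6 CPM in Ninj1KO_NoPrime and 40.7 to 45.1 CPM in WT_NoPrime libraries. Only 1 of these 4 markers passed the filter on low counts, and it rose in both genotypes. Sums of lymphocyte, of stromal and endothelial, and of mast cell and basophil markers overlapped between Pam3 and media in both genotypes. The part of these sums in the sterol results was not tested. In bulk RNA, a larger share of cells of a type and more RNA per cell cannot be told apart.

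**Figure D1:**
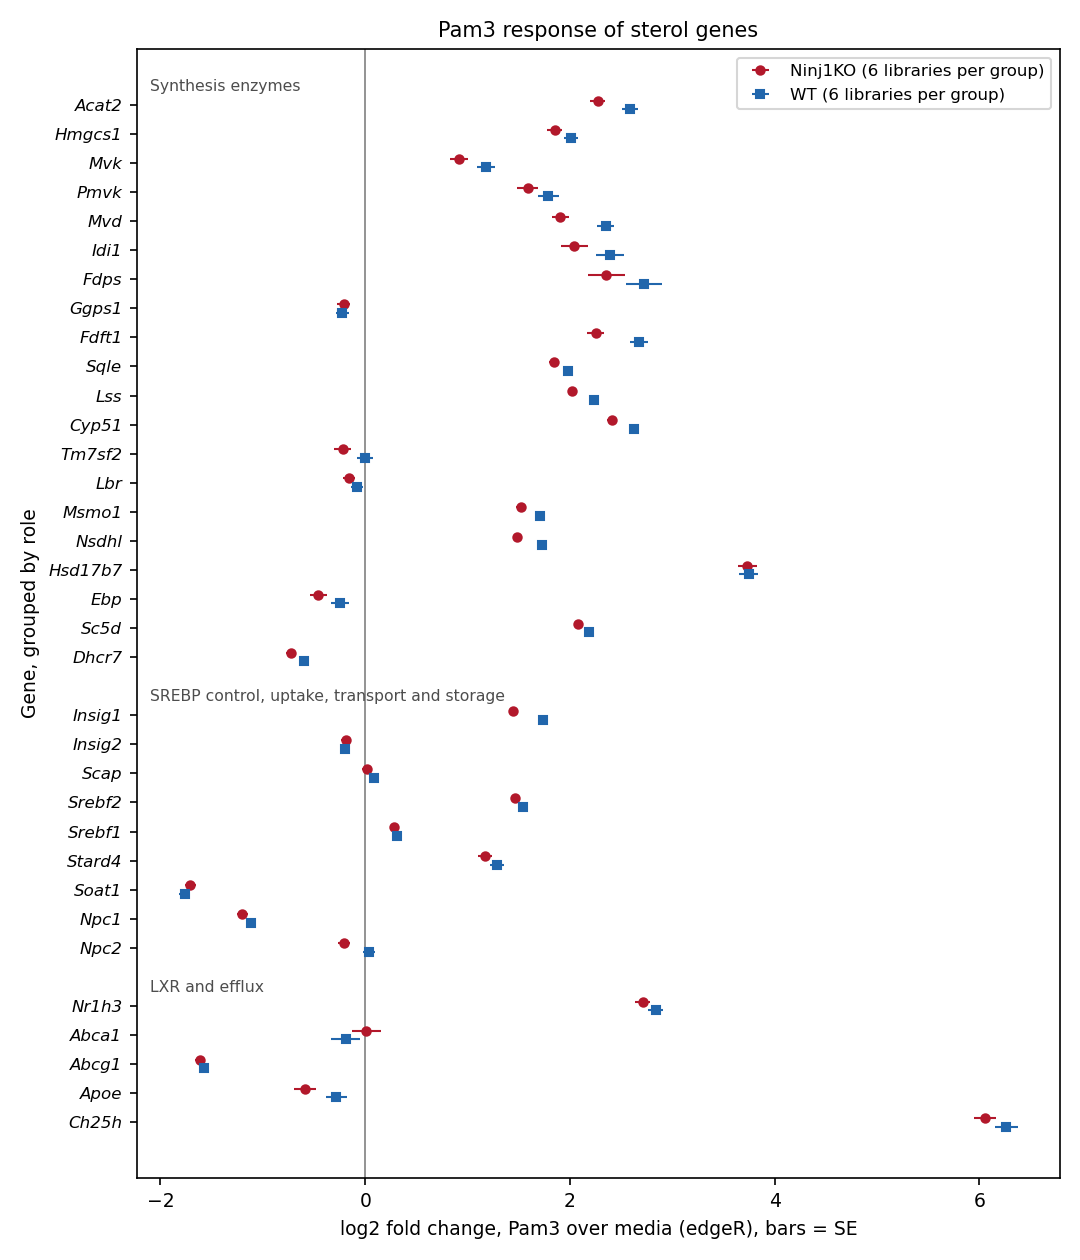
Log2 fold change of the 34 sterol genes, Pam3 over media, in Ninj1KO (circles) and WT (squares) macrophages, 6 libraries per group, with bars of 1 SE from edgeR, genes grouped by role on the vertical axis. The 15 risen enzymes lie between 0.91 and 3.75, Ch25h stands farthest right at 6.05 and 6.26, and Soat1, Abcg1 and Npc1 lie farthest left, between -1.76 and -1.11.

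The first steps, from acetyl-CoA to mevalonate, were represented by Acat2, the cytosolic thiolase that makes acetoacetyl-CoA, and Hmgcs1, the synthase that extends it to HMG-CoA. Values below are the lowest, median and highest of the 6 libraries of a group. Acat2 had 38.6, 39.1 and 41.7 CPM in Ninj1KO_Pam3 and 43.7, 45.1 and 60.7 CPM in WT_Pam3, against 7.28, 8.16 and 9.28 CPM in Ninj1KO_NoPrime and 6.84, 7.94 and 9.20 CPM in WT_NoPrime libraries. Every Pam3 library lay well above every media library, and the highest WT_Pam3 value belonged to replicate 5. The log2 fold change was 2.27 (SE 0.0749, edgeR adjusted p = 1.30e-20) in Ninj1KO and 2.59 (SE 0.0753, adjusted p = 7.09e-22) in WT macrophages. Hmgcs1 had 405, 432 and 451 CPM in Ninj1KO_Pam3 and 376, 493 and 541 CPM in WT_Pam3, against 109, 114 and 143 CPM in Ninj1KO_NoPrime and 109, 124 and 125 CPM in WT_NoPrime libraries. It rose by 1.85 (SE 0.0707) in Ninj1KO and 2.01 (SE 0.0710) in WT macrophages on the log2 scale, again with no overlap between Pam3 and media. The Acat2 values are uncertain because 39.1% of its stretches of 50 bases, the read length, also occur in other transcripts, mainly those of Acat3 and Tcp1. For Hmgcs1 the share was 11.6%, mainly from an antisense gene model that averaged 0.708 counts per library.

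The promoters of these 2 genes and of 3 others are shown because they hold, or do not hold, an exact match to a core motif of the sites at which SREBP acts. All 5 genes rose with Pam3. The lack of an exact match does not show that a promoter lacks SREBP sites. Each stretch holds the 250 bases before the RefSeq transcription start on GRCm38.p6, 5′ to 3′ along the gene's own strand. Capitals mark the motifs CACNCCAC, a core of the sterol regulatory element, and CCAAT, the box bound by the factor NF-Y, each searched on both strands, so that GTGGCGTG and ATTGG are matches on the other strand. No match of one motif overlapped a match of the other in the 5 stretches.

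Acat2, chr17:12960726-12960975, minus strand: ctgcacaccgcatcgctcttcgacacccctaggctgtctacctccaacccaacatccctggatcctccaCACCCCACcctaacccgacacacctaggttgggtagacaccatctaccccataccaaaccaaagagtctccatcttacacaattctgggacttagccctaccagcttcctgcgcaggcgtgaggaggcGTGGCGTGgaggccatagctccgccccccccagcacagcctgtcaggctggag
Hmgcs1, chr13:119690101-119690350, plus strand: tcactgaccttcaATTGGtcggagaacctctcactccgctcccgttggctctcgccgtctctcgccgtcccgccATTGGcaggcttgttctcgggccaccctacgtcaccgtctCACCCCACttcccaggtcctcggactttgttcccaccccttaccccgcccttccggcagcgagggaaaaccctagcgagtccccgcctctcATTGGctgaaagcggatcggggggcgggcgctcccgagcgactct
Hsd17b7, chr1:169969206-169969455, minus strand: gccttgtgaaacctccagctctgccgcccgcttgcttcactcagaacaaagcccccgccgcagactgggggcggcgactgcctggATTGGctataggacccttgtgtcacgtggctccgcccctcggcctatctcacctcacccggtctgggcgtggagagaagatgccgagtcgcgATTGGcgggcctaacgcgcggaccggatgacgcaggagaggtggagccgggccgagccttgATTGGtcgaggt
Nsdhl, chrX:72918271-72918520, plus strand: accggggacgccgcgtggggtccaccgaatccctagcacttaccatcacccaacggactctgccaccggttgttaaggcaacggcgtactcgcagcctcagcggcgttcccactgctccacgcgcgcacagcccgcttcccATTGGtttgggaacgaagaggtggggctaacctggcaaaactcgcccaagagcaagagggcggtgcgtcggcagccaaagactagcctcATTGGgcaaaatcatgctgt
Insig1, chr5:28071162-28071411, plus strand: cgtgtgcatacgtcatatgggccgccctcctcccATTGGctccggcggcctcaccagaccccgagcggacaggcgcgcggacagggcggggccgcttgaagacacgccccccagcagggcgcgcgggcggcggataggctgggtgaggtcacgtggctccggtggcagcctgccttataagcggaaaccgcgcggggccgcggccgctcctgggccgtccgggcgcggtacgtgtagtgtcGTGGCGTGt

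In Acat2 the first CACNCCAC match began 181 bases before the start and the second 53 bases before it, while in Hmgcs1 it began 136 and in Insig1 9 bases before the start. Hsd17b7 had no such match but 3 CCAAT boxes, which began 165, 73 and 12 bases before the start. Of the 28 sterol genes with a RefSeq window, 3 held CACNCCAC (Acat2, Hmgcs1 and Insig1), and 5.29% of 32851 promoter windows of all genes held it. CCAAT was found in 22 of the 28, against 33.8% of all windows. It did not separate the enzymes by their response: it stood in 11 of 12 risen enzymes with a window and in 5 of the 5 other enzymes. A match is a description of the letters, not evidence of binding, and 6 genes (Fdps, Fdft1, Sqle, Stard4, Npc1 and Abcg1) had no window.

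The enzymes that turn mevalonate into farnesyl diphosphate rose as well. Mvk, mevalonate kinase, had 30.8, 34.1 and 36.8 CPM in Ninj1KO_Pam3 and 33.5, 36.2 and 54.7 CPM in WT_Pam3, against 16.8, 18.1 and 20.3 CPM in Ninj1KO_NoPrime and 16.1, 17.1 and 18.5 CPM in WT_NoPrime libraries. Its log2 rise of 0.91 (SE 0.0865) in Ninj1KO and 1.18 (SE 0.0868) in WT macrophages was the smallest among the 15 risen enzymes. Pmvk, the next kinase, had 48.7, 50.1 and 53.8 CPM in Ninj1KO_Pam3 and 50.1, 53.8 and 90.1 CPM in WT_Pam3, against 15.1, 17.3 and 18.9 CPM in Ninj1KO_NoPrime and 15.4, 17.2 and 18.6 CPM in WT_NoPrime libraries, a log2 rise of 1.59 and 1.79. Mvd, the decarboxylase that yields isopentenyl diphosphate, had 97.2, 102 and 115 CPM in Ninj1KO_Pam3 and 117, 119 and 180.4 CPM in WT_Pam3, against 24.5, 27.5 and 29.8 CPM in Ninj1KO_NoPrime and 23.7, 25.8 and 27.3 CPM in WT_NoPrime libraries. For all 3 enzymes the Pam3 and media libraries did not overlap, and for all 3 the highest WT_Pam3 library was replicate 5, far above the median of its group. The log2 rise of Mvd was 1.90 (SE 0.0827, edgeR adjusted p = 6.92e-18) in Ninj1KO and 2.35 (SE 0.0838, adjusted p = 7.73e-20) in WT macrophages.

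Idi1, the isomerase of isopentenyl diphosphate, and Fdps, farnesyl diphosphate synthase, were the 2 enzymes with the fewest counts. Idi1 had 4.58, 5.61 and 6.24 CPM in Ninj1KO_Pam3 and 4.38, 5.79 and 7.08 CPM in WT_Pam3, against 0.954, 1.34 and 1.83 CPM in Ninj1KO_NoPrime and 0.966, 1.10 and 1.38 CPM in WT_NoPrime libraries. Fdps had 2.81, 3.17 and 4.14 CPM in Ninj1KO_Pam3 and 3.60, 4.19 and 7.27 CPM in WT_Pam3, against 0.500, 0.633 and 0.928 CPM in Ninj1KO_NoPrime and 0.564, 0.675 and 0.804 CPM in WT_NoPrime libraries. Both rose without overlap, Idi1 by 2.04 (SE 0.134) in Ninj1KO and 2.39 (SE 0.137) in WT macrophages and Fdps by 2.35 (SE 0.179) and 2.72 (SE 0.173) on the log2 scale. The wider SEs go with low counts, 22 to 36 per library in Ninj1KO_NoPrime and 27 to 31 in WT_NoPrime for Fdps. Of the read-length stretches, 25.3% of Idi1 and 26.2% of Fdps also occur in other gene models, processed pseudogenes and overlapping models at the same locus among them, so the levels of both are uncertain. Ggps1, which takes farnesyl diphosphate away to geranylgeranyl diphosphate, fell slightly, by 0.21 in Ninj1KO and 0.22 in WT macrophages on the log2 scale (edgeR adjusted p = 0.00359 and 0.00219), with Pam3 and media libraries overlapping in both genotypes.

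Along the squalene and lanosterol steps, which are the first that lead to sterols alone, Fdft1, Sqle, Lss and Cyp51 rose, with every Pam3 library above every media library. Fdft1, squalene synthase, had 26.6, 29.1 and 33.5 CPM in Ninj1KO_Pam3 and 29.1, 31.4 and 37.2 CPM in WT_Pam3, against 5.66, 5.76 and 7.58 CPM in Ninj1KO_NoPrime and 4.38, 4.89 and 5.76 CPM in WT_NoPrime libraries. Sqle, squalene epoxidase, a rate-controlling step of the pathway, had 252, 261 and 269.8 CPM in Ninj1KO_Pam3 and 277, 283 and 296 CPM in WT_Pam3, against 66.0, 72.6 and 84.3 CPM in Ninj1KO_NoPrime and 68.5, 71.7 and 76.2 CPM in WT_NoPrime libraries. These amount to log2 rises of 2.25 (SE 0.0837) in Ninj1KO and 2.67 (SE 0.0856) in WT macrophages for Fdft1, and of 1.85 (SE 0.0457) and 1.98 (SE 0.0459) for Sqle. Fdft1 shares 18.31% of its exon bases with Ctsb on the opposite strand, a gene with far more counts, and the library kit does not mark strand, so reads of the 2 cannot be told apart there. Lss, which closes squalene epoxide into lanosterol, had 118, 123 and 126 CPM in Ninj1KO_Pam3 and 141, 144 and 147 CPM in WT_Pam3, against 29.3, 29.8 and 32.0 CPM in Ninj1KO_NoPrime and 29.5, 30.2 and 33.0 CPM in WT_NoPrime libraries. Cyp51, lanosterol demethylase, had 362, 376 and 398 CPM in Ninj1KO_Pam3 and 401, 419 and 441 CPM in WT_Pam3, against 66.5, 69.7 and 84.0 CPM in Ninj1KO_NoPrime and 65.0, 67.5 and 72.4 CPM in WT_NoPrime libraries. Lss rose by 2.02 (SE 0.0344) in Ninj1KO and 2.23 (SE 0.0346) in WT macrophages, and Cyp51 by 2.41 (SE 0.0488) and 2.63 (SE 0.0491), on the log2 scale. For Sqle, Lss and Cyp51, WT_Pam3 replicate 5 lay within the range of the other 5 WT_Pam3 libraries.

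Among the enzymes that trim lanosterol to cholesterol the responses split. Msmo1, Nsdhl and Hsd17b7 act in turn to remove methyl groups, and all 3 rose. Msmo1 had 324, 339 and 373 CPM in Ninj1KO_Pam3 and 359.9, 383 and 392 CPM in WT_Pam3, against 110.1, 118 and 133 CPM in Ninj1KO_NoPrime and 110.2, 117 and 122 CPM in WT_NoPrime libraries. Nsdhl had 65.3, 69.1 and 71.0 CPM in Ninj1KO_Pam3 and 73.8, 76.4 and 83.1 CPM in WT_Pam3, against 22.1, 24.5 and 27.1 CPM in Ninj1KO_NoPrime and 22.6, 23.2 and 24.2 CPM in WT_NoPrime libraries. Their log2 rises were 1.52 and 1.71 for Msmo1, and 1.48 and 1.73 for Nsdhl, Ninj1KO before WT, with SEs from 0.0408 to 0.0451. Hsd17b7 had 171, 182 and 187 CPM in Ninj1KO_Pam3 and 122, 196 and 199 CPM in WT_Pam3, against 12.4, 13.2 and 15.3 CPM in Ninj1KO_NoPrime and 12.6, 13.6 and 15.0 CPM in WT_NoPrime libraries. This was the largest rise among the 20 enzymes, 13.3-fold in Ninj1KO (log2 3.73, SE 0.0928) and 13.4-fold in WT macrophages (log2 3.75, SE 0.0928). The lowest WT_Pam3 value of Hsd17b7 came from replicate 5, and the other 5 held 189.9 to 199 CPM. Sc5d, a sterol desaturase, had 209.8, 223 and 229 CPM in Ninj1KO_Pam3 and 233, 254 and 261 CPM in WT_Pam3, against 48.1, 51.9 and 58.4 CPM in Ninj1KO_NoPrime and 53.1, 55.1 and 58.3 CPM in WT_NoPrime libraries, a log2 rise of 2.08 and 2.18.

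The other late enzymes went the opposite way or stayed below the threshold. Dhcr7, the reductase of the last step to cholesterol, fell to 22.3, 23.6 and 26.0 CPM in Ninj1KO_Pam3 and 23.4, 26.1 and 27.8 CPM in WT_Pam3, against 36.3, 40.0 and 40.6 CPM in Ninj1KO_NoPrime and 36.0, 39.8 and 41.4 CPM in WT_NoPrime libraries (log2 -0.73 and -0.59, SE 0.0483 and 0.0482). Ebp, a sterol isomerase, fell with log2 fold changes of -0.46 (SE 0.0865) in Ninj1KO and -0.25 (SE 0.0865) in WT macrophages. WT_Pam3 replicate 5 had 49.5 CPM of Ebp, above every media library, and without it the WT_Pam3 and WT_NoPrime libraries did not overlap. Tm7sf2 and Lbr, reductases that act on the same double bond, had log2 fold changes of -0.22 and -0.16 in Ninj1KO macrophages (edgeR adjusted p = 0.0136 and 0.0158). In WT macrophages they had 0.00 and -0.08 (edgeR adjusted p = 0.995 and 0.206), and the groups overlapped for both genes in both genotypes. Lbr lost the Ninj1KO call with DESeq2 (log2 -0.12, adjusted p = 0.0582, and 1.18e-10 to 0.114 over the alternatives), with RLE factors and without Ninj1KO_NoPrime replicates 4 and 6 (log2 -0.11). Summed over the 20 enzymes, the level was 2285 to 2483 CPM in Ninj1KO_Pam3 and 2595 to 2752 CPM in WT_Pam3, against 688 to 808 CPM in Ninj1KO_NoPrime and 678 to 734 CPM in WT_NoPrime libraries.

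Of the 9 control, transport and storage genes 4 rose, 4 fell and 1 did not pass in Ninj1KO macrophages, and 4 rose, 3 fell and 2 did not pass in WT macrophages, counts near the shares over all genes (40.2% higher and 44.8% lower in Ninj1KO, 40.6% and 44.2% in WT). Srebf2, which encodes the SREBP of cholesterol synthesis, had 622, 673 and 694 CPM in Ninj1KO_Pam3 and 584, 699 and 734 CPM in WT_Pam3, against 229.8, 239.5 and 264 CPM in Ninj1KO_NoPrime and 226, 236 and 242 CPM in WT_NoPrime libraries. It rose by 1.47 (SE 0.0466) in Ninj1KO and 1.55 (SE 0.0467) in WT macrophages on the log2 scale, with every Pam3 library above every media library. Insig1, the retention protein that is itself an SREBP target, had 282, 299.5 and 319 CPM in Ninj1KO_Pam3 and 367, 379 and 405 CPM in WT_Pam3, against 102, 109 and 124 CPM in Ninj1KO_NoPrime and 111, 114 and 118 CPM in WT_NoPrime libraries. Its log2 rise was 1.44 (SE 0.0437) in Ninj1KO and 1.74 (SE 0.0440) in WT macrophages. Srebf1, whose product favours fatty acid synthesis, rose by only 0.28 and 0.31, and its direction flipped to -0.20 and -0.21 when counts were scaled by library size alone. Insig2, the retention protein not induced by SREBP, had log2 fold changes of -0.19 and -0.19 (edgeR adjusted p = 8.17e-04 and 7.06e-04), and Scap, the escort of SREBP, had 0.02 and 0.09 (adjusted p = 0.751 and 0.0840).

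Scaling by library size alone moved the median of all genes tested to -0.56 in Ninj1KO and -0.58 in WT macrophages, so a log2 fold change near 0 has no firm sign there. Under that scaling 20 sterol genes were called higher and 14 lower in each genotype, against 25.5% and 61.9% of all genes in Ninj1KO and 24.8% and 62.7% in WT macrophages, beside 21 and 11 in Ninj1KO and 21 and 8 in WT macrophages with TMM. The 15 risen enzymes, Insig1, Srebf2, Stard4, Nr1h3 and Ch25h stayed called higher in both genotypes under each of the 8 alternatives run.

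Among the genes that move and store cholesterol, Soat1 and Npc1 fell and Stard4 rose in both genotypes. Soat1, which esterifies cholesterol for storage, had 155, 165 and 170.2 CPM in Ninj1KO_Pam3 and 132, 178 and 189 CPM in WT_Pam3, against 524, 534 and 544 CPM in Ninj1KO_NoPrime and 571, 582 and 597 CPM in WT_NoPrime libraries. Npc1, which lets cholesterol out of the lysosome, had 176, 185 and 195 CPM in Ninj1KO_Pam3 and 163, 211 and 222 CPM in WT_Pam3, against 410.0, 425 and 436 CPM in Ninj1KO_NoPrime and 429, 443 and 463 CPM in WT_NoPrime libraries. Neither gene overlapped between Pam3 and media in either genotype, and WT_Pam3 replicate 5 held the lowest value of both. The log2 fold change of Soat1 was -1.71 (SE 0.0553) in Ninj1KO and -1.76 (SE 0.0554) in WT macrophages, and that of Npc1 -1.20 (SE 0.0509) and -1.11 (SE 0.0508). Npc2 had log2 fold changes of -0.21 in Ninj1KO (edgeR adjusted p = 0.00294) and 0.04 in WT macrophages (adjusted p = 0.555). Stard4, a soluble carrier of cholesterol between membranes, had 127, 136 and 146 CPM in Ninj1KO_Pam3 and 118, 155 and 167 CPM in WT_Pam3, against 55.4, 58.1 and 67.3 CPM in Ninj1KO_NoPrime and 57.6, 62.4 and 65.8 CPM in WT_NoPrime libraries. It rose by 1.17 (SE 0.0649) in Ninj1KO and 1.29 (SE 0.0650) in WT macrophages on the log2 scale.

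Of the 5 LXR and efflux genes 2 rose, 2 fell and 1 did not pass the test in each genotype, again near the shares over all genes. Nr1h3, which encodes LXR alpha, had 113, 128 and 134 CPM in Ninj1KO_Pam3 and 128, 135 and 181 CPM in WT_Pam3, against 17.6, 19.0 and 21.0 CPM in Ninj1KO_NoPrime and 17.3, 20.004 and 22.5 CPM in WT_NoPrime libraries. This was a rise of 6.54-fold in Ninj1KO (log2 2.71, SE 0.0767) and 7.14-fold in WT macrophages (log2 2.84, SE 0.0769). Neither of the LXR targets that export cholesterol passed the test as higher. Abcg1, which loads cholesterol onto HDL, had 92.3, 98.4 and 103 CPM in Ninj1KO_Pam3 and 79.2, 93.4 and 97.6 CPM in WT_Pam3, against 285, 301 and 314 CPM in Ninj1KO_NoPrime and 266, 272 and 284 CPM in WT_NoPrime libraries (log2 -1.62 and -1.57, SE 0.0428 for both). Every Pam3 library lay far below every media library. Abca1, which exports cholesterol to lipid-poor apolipoprotein A-I, had 630.4, 746 and 763 CPM in Ninj1KO_Pam3 and 299, 773 and 836 CPM in WT_Pam3, against 660.4, 724 and 761 CPM in Ninj1KO_NoPrime and 759, 808 and 866 CPM in WT_NoPrime libraries. These groups overlapped, and the log2 fold changes of 0.01 (SE 0.140) in Ninj1KO and -0.19 (SE 0.140) in WT macrophages did not pass the test (edgeR adjusted p = 0.941 and 0.200). The low WT_Pam3 value was replicate 5, at 299 CPM against 752 to 836 CPM in the other 5 libraries, and without it the WT log2 fold change was -0.03.

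Apoe fell in both genotypes, with log2 fold changes of -0.59 (SE 0.105) in Ninj1KO and -0.28 (SE 0.105) in WT macrophages. Apoe stood at 4017, 4518 and 5176 CPM in Ninj1KO_Pam3 and 4558, 5444 and 8925 CPM in WT_Pam3, against 5846, 6964 and 7635 CPM in Ninj1KO_NoPrime and 6756, 7169.8 and 7414 CPM in WT_NoPrime libraries. The highest WT_Pam3 value was again replicate 5, above all media libraries, and without it the WT log2 fold change was -0.44 and the WT groups did not overlap. Ch25h, the hydroxylase that turns cholesterol into an oxysterol that keeps SREBP inactive, had the largest response of the 34 genes. It had 19.952, 22.4 and 24.3 CPM in Ninj1KO_Pam3 and 17.8, 21.6 and 23.2 CPM in WT_Pam3, against 0.24979, 0.310 and 0.515 CPM in Ninj1KO_NoPrime and 0.174, 0.274 and 0.349 CPM in WT_NoPrime libraries. The fitted fold change was 66.4 in Ninj1KO (log2 6.05, SE 0.109) and 76.7 in WT macrophages (log2 6.26, SE 0.112). Its media level rests on 11 to 20 counts per library in Ninj1KO_NoPrime and 8 to 16 in WT_NoPrime, so the size of the fold change is less certain than its direction.

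**Figure D2:**
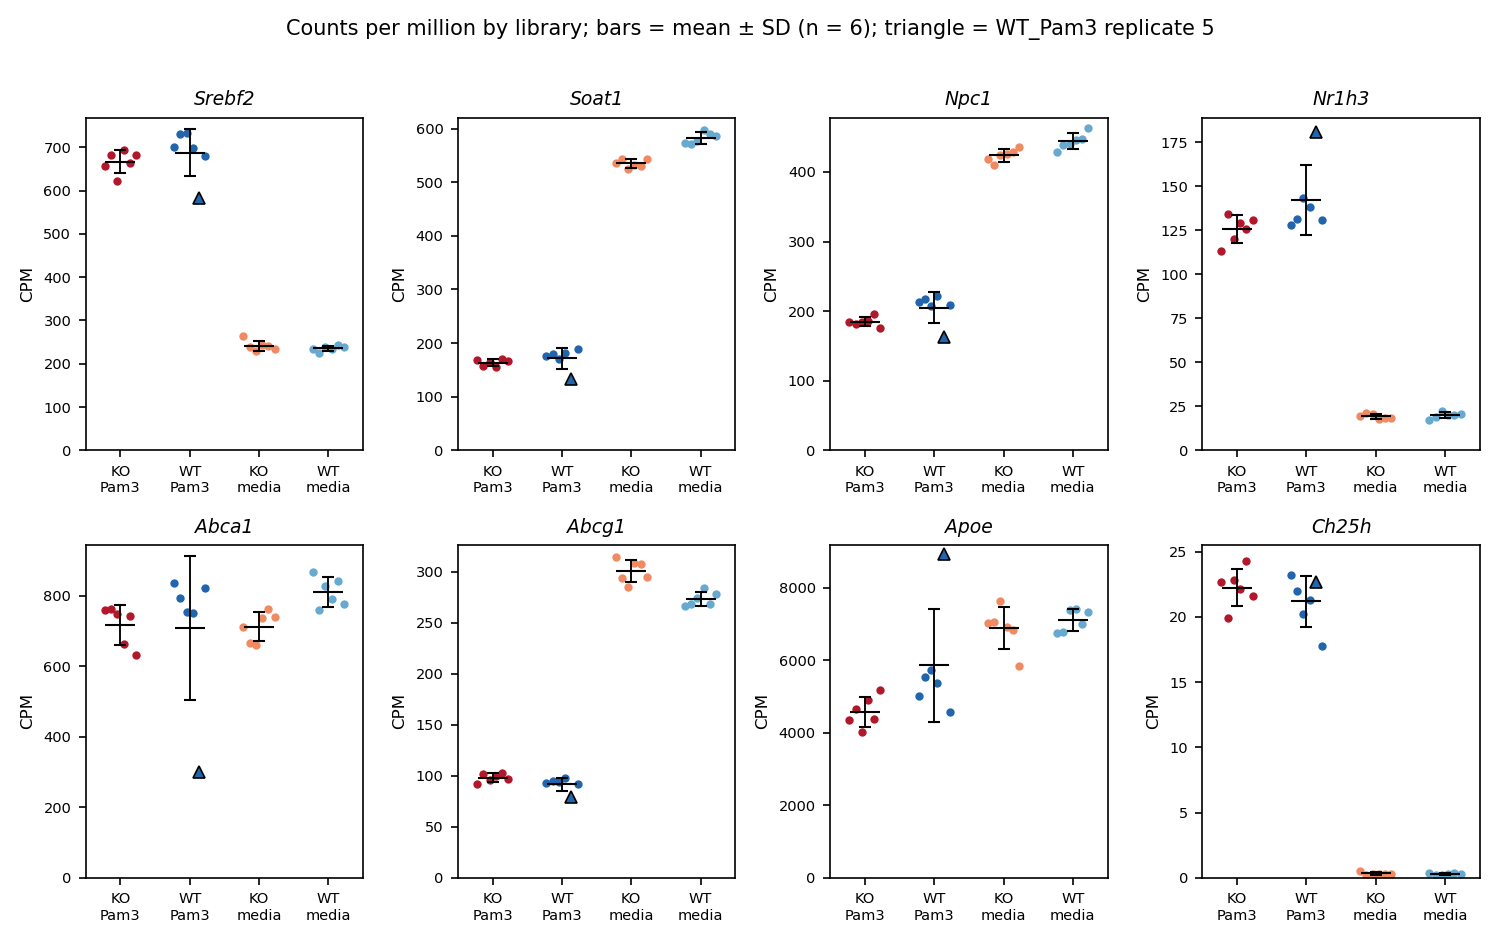
CPM of 8 control, storage, LXR and efflux genes in each of the 24 libraries, with bars of mean ± SD (n = 6 per group) and a triangle for WT_Pam3 replicate 5. Srebf2, Nr1h3 and Ch25h are high in all Pam3 libraries, Soat1, Npc1 and Abcg1 are low in all of them, and for Abca1 the triangle lies at 299 CPM, below the 23 other libraries.

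Leaving out WT_Pam3 replicate 5 kept every sterol gene called in WT macrophages on its side of the threshold, with some change in size. Among the enzymes, the WT log2 fold change without it was 2.51 for Acat2, 2.08 for Hmgcs1, 1.06 for Mvk, 1.63 for Pmvk, 2.23 for Mvd, 2.54 for Fdps, 3.84 for Hsd17b7, 2.21 for Sc5d and -0.38 for Ebp. Among the other genes it was 1.59 for Srebf2, 1.35 for Stard4, -1.70 for Soat1, -1.05 for Npc1, 2.76 for Nr1h3 and -1.53 for Abcg1. By libraries rather than by the fitted model, 21 sterol genes in Ninj1KO and 21 in WT macrophages had every Pam3 library above every media library, against 36.0% and 32.5% of all genes tested. The reverse held for 7 sterol genes in Ninj1KO and 5 in WT macrophages, against 39.7% and 36.4% of all genes. Leaving out WT_Pam3 replicate 5 gave WT counts of 21 higher and 7 lower, against 36.9% and 40.4%.

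The counts of other genes of the same pathways are to be read beside the 40.2% higher and 44.8% lower of all genes in Ninj1KO and the 40.6% and 44.2% in WT macrophages. Of 18 further SREBP and fatty acid synthesis genes, 10 rose and 8 fell in Ninj1KO and 10 rose and 7 fell in WT macrophages. Fasn, fatty acid synthase, rose by 1.35 (SE 0.0659) in Ninj1KO and 1.44 (SE 0.0660) in WT macrophages on the log2 scale, while Fads1, a fatty acid desaturase, fell (-2.07 in Ninj1KO and -1.83 in WT). Of 14 further uptake and sterol transport genes, 5 rose and 7 fell in Ninj1KO and 5 rose and 8 fell in WT macrophages. Msr1, a scavenger receptor for modified lipoproteins, rose by 3.07 (SE 0.0471) in Ninj1KO and 2.89 (SE 0.0467) in WT macrophages, and Nceh1, which hydrolyses stored cholesteryl esters, fell (-3.28 in Ninj1KO and -3.11 in WT). Of 13 further genes tested from a list of LXR receptors, targets and sterol enzymes, 4 rose and 9 fell in Ninj1KO and 4 rose and 8 fell in WT macrophages. Rxra, the partner of LXR in DNA binding, fell (-1.94 in Ninj1KO and -1.84 in WT), as did Arl4c, a GTPase induced by LXR (-5.49, SE 0.0643, in Ninj1KO and -5.63, SE 0.0657, in WT). Among the 4 that rose were Lpcat3 (0.70 in Ninj1KO and 0.73 in WT) and Lpl (0.48 in Ninj1KO and 0.34 in WT).

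Between genotypes after Pam3, 6 synthesis enzymes and Insig1 were slightly lower in Ninj1KO than in WT macrophages. Of the 34 genes 7 were lower and 0 higher, against 2.75% and 1.31% of all genes tested: 6 of the 20 enzymes (Acat2, Mvd, Lss, Msmo1, Nsdhl and Sc5d) and Insig1. The differences were small, from -0.16 to -0.34 on the log2 scale. In sign, 31 of 34 sterol genes and 20 of 20 enzymes lay below 0, with a median of -0.14 over the 34 genes and -0.01 over all genes tested. Scaled by library size alone, 26 of the 34 lay below 0, with a median of -0.09 beside 0.03 over all genes tested. At an unadjusted p under 0.05, 18 sterol genes were lower and 1 higher in the edgeR fit, against 10.3% and 6.01% of all genes. DESeq2 called 9 lower and 0 higher, beside 578 lower and 277 higher among all 14433 genes it tested. Without WT_Pam3 replicate 5, 14 were lower and 0 higher, against 5.67% and 2.42% of all genes, the 7 named and Hmgcs1, Sqle, Cyp51, Stard4, Soat1, Npc1 and Apoe. With the 2 Pam3 groups fitted alone, 2 were lower, against 0.879% of all genes, and with library size alone 3 were lower and 1 higher, against 1.52% and 2.85%.

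Insig1 had the smallest adjusted p of the 34 genes. It averaged 301 ± 16.2 CPM in Ninj1KO_Pam3 and 381 ± 13.6 CPM in WT_Pam3 libraries (SD, n = 6 each). The log2 difference was -0.34 (SE 0.0428, edgeR adjusted p = 1.46e-05), with all 6 Ninj1KO_Pam3 libraries below all 6 WT_Pam3 libraries. Lss averaged 122 ± 2.82 CPM in Ninj1KO_Pam3 and 144 ± 2.80 CPM in WT_Pam3 libraries, a log2 difference of -0.23 (SE 0.0328, edgeR adjusted p = 7.10e-05), likewise without overlap. WT_Pam3 replicate 5 was close to its group for both genes, and without it the log2 differences were -0.35 and -0.24. On GRCm38, the protein-coding gene Insig1 lies at chr5:28071363-28078662, Lss at chr10:76531588-76557138 and Nsdhl at chrX:72918557-72958514, all on the plus strand. Insig1 and Lss stayed lower past the test under each of the 8 alternatives run, with adjusted p from 6.60e-13 to 0.00247 and from 4.20e-16 to 0.00726.

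The other calls rested on fewer settings. Mvd averaged 104 ± 6.40 CPM in Ninj1KO_Pam3 and 130.0 ± 25.0 CPM in WT_Pam3 libraries, and Acat2 averaged 39.5 ± 1.16 CPM in Ninj1KO_Pam3 and 47.7 ± 6.47 CPM in WT_Pam3 libraries (SD, n = 6 each). For both genes the genotypes did not overlap with or without replicate 5, and the log2 difference was smaller without it: it was -0.33 (SE 0.0789) for Mvd and -0.21 (SE 0.0421) without it, and -0.27 (SE 0.0684) for Acat2 and -0.19 (SE 0.0452) without it. Nsdhl averaged 68.8 ± 1.91 CPM in Ninj1KO_Pam3 and 77.1 ± 3.26 CPM in WT_Pam3 libraries (log2 -0.16, SE 0.0394, edgeR adjusted p = 0.0153). Sc5d averaged 221 ± 6.76 CPM in Ninj1KO_Pam3 and 251 ± 9.78 CPM in WT_Pam3 libraries (log2 -0.18, SE 0.0433, edgeR adjusted p = 0.0128). Neither of these 2 genes overlapped between genotypes, whereas Msmo1 did, at 324 to 373 CPM in Ninj1KO_Pam3 and 359.9 to 392 CPM in WT_Pam3 libraries (log2 -0.16, edgeR adjusted p = 0.0402). Acat2, Msmo1, Nsdhl and Sc5d lost the call with library size alone, with no filter on low counts and with the 2 Pam3 groups fitted alone, and Mvd with the last of these. Msmo1 also lost it without Ninj1KO_NoPrime replicates 4 and 6 (log2 -0.14, edgeR adjusted p = 0.0833, and 0.00937 to 0.319 over the alternatives).

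**Figure D3:**
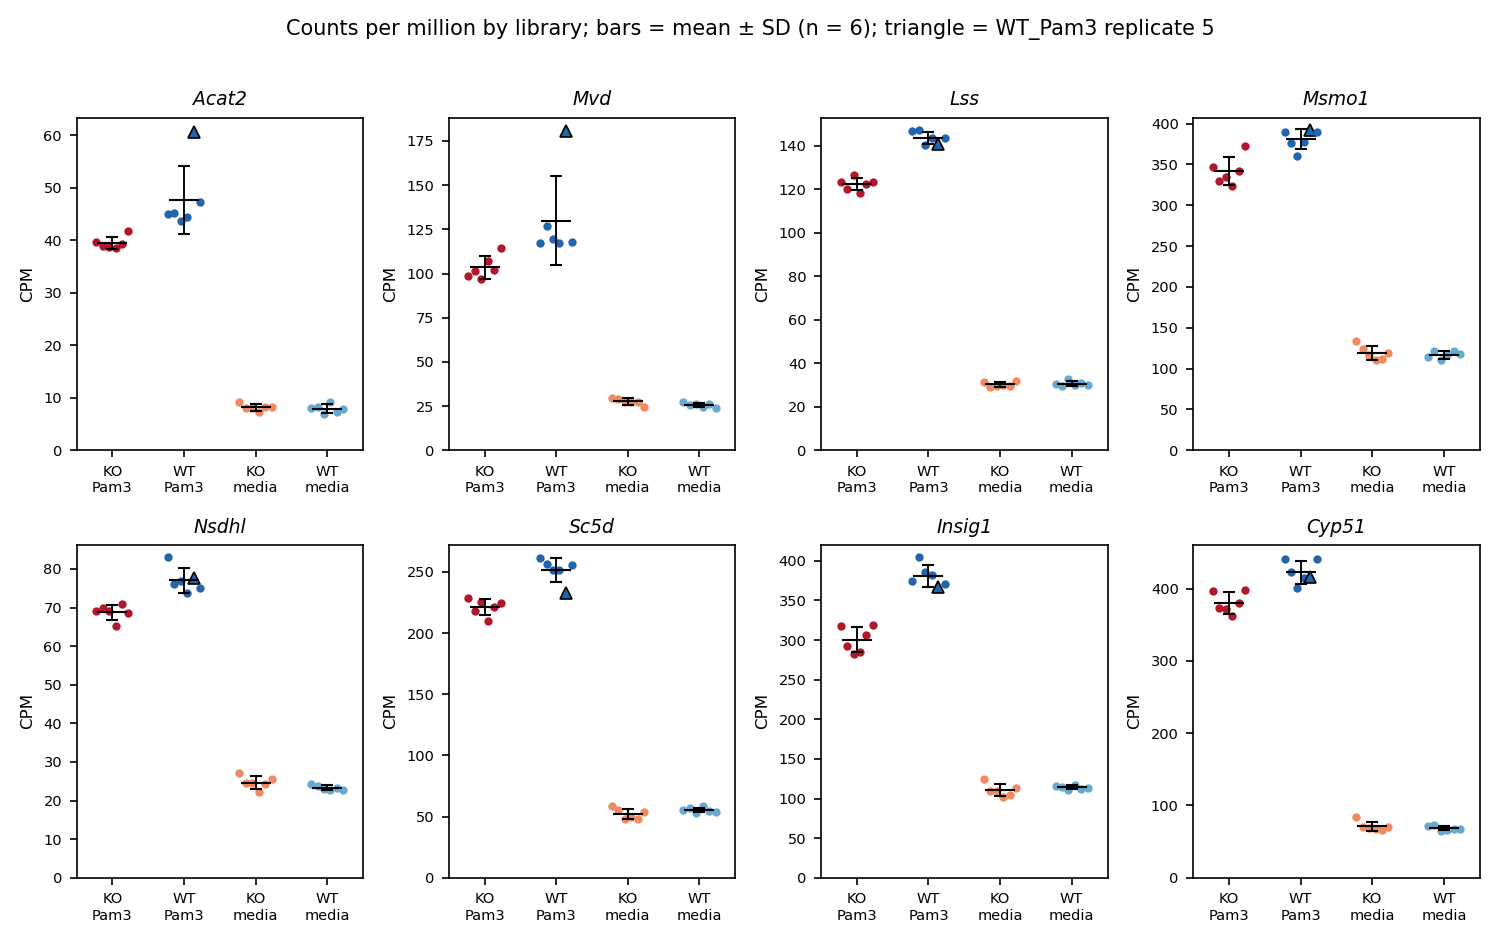
CPM of 7 synthesis enzymes and Insig1 in each of the 24 libraries, with bars of mean ± SD (n = 6 per group) and a triangle for WT_Pam3 replicate 5. All Pam3 libraries lie above all media libraries, and for Lss and Insig1 the 6 Ninj1KO_Pam3 libraries lie below the 6 WT_Pam3 libraries, the triangle included.

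Counted by libraries, 8 sterol genes had all Ninj1KO_Pam3 values below all WT_Pam3 values, against 1.63% of all genes tested, and 0 had them above, against 0.894%. These were Acat2, Mvd, Sqle, Lss, Cyp51, Nsdhl, Sc5d and Insig1. With WT_Pam3 replicate 5 left out there were 13 below and 0 above, against 4.39% and 1.56% of all genes. Cyp51 averaged 380.0 ± 14.6 CPM in Ninj1KO_Pam3 and 423 ± 15.7 CPM in WT_Pam3 libraries but missed the threshold (log2 -0.15, SE 0.0461, edgeR adjusted p = 0.0579). Sqle averaged 261 ± 7.42 CPM in Ninj1KO_Pam3 and 285 ± 7.81 CPM in WT_Pam3 libraries and missed it too (log2 -0.13, SE 0.0441, edgeR adjusted p = 0.119). The upstream factor Srebf2 had -0.04 (SE 0.0456, edgeR adjusted p = 0.679), and Hsd17b7, the enzyme with the largest Pam3 response, -0.02 (SE 0.0812, adjusted p = 0.936). Without WT_Pam3 replicate 5, the lowest of its group for both genes, Srebf2 had -0.09 (SE 0.0336, edgeR adjusted p = 0.118). Hsd17b7 then had -0.11 (SE 0.0393, edgeR adjusted p = 0.0766) and did not overlap between genotypes, though neither gene passed the test. None of the 5 LXR and efflux genes passed the test with all libraries, their log2 differences running from -0.35 for Apoe (SE 0.105, edgeR adjusted p = 0.0556) to 0.10 for Abcg1 (SE 0.0423, adjusted p = 0.233).

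**Figure D4:**
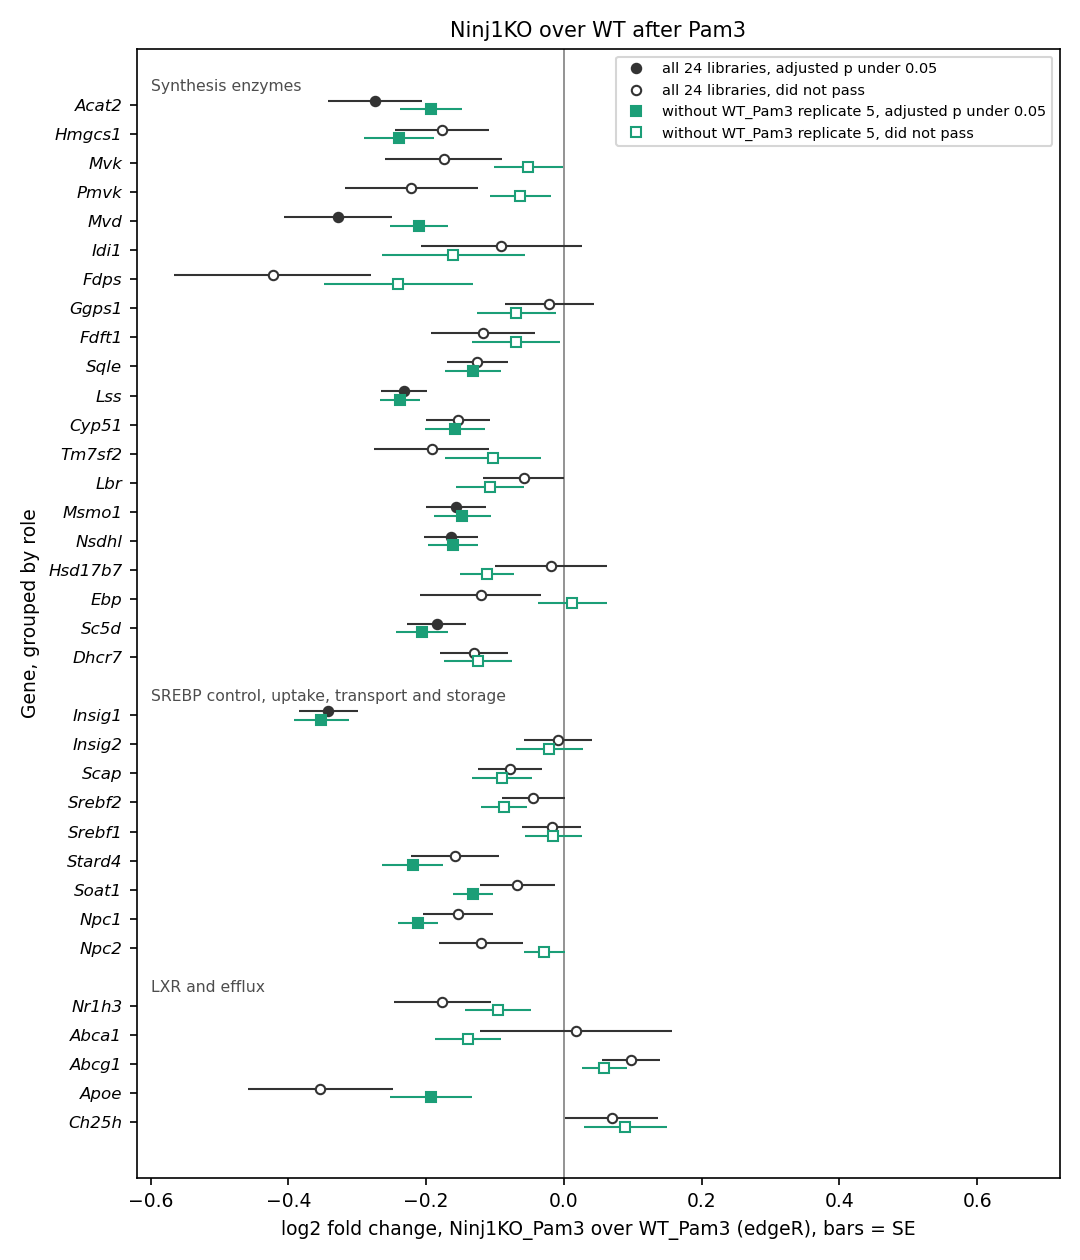
Log2 difference of the 34 sterol genes, Ninj1KO_Pam3 over WT_Pam3, with all libraries (circles) and without WT_Pam3 replicate 5 (squares), bars of 1 SE from edgeR, filled where the adjusted p was under 0.05. With all libraries 31 of 34 points lie below 0 and 7 are filled, and without that library 14 are filled.

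The summed level of 8 macrophage markers, which the most abundant ones dominate, was 29628 to 31049 CPM in Ninj1KO_Pam3 and 31569 to 35619 CPM in WT_Pam3 libraries, while of the 8 markers 2 were lower, 1 was higher and 5 did not pass the test. Markers of other cells ran the other way or overlapped: 7 stromal and endothelial markers summed to 44.6 to 68.9 CPM in Ninj1KO_Pam3 and 32.9 to 47.2 CPM in WT_Pam3 libraries, and 8 granulocyte markers to 48.7 to 57.0 CPM in Ninj1KO_Pam3 and 39.2 to 62.3 CPM in WT_Pam3 libraries. The part of these differences in the sterol results was not tested. Among further pathway genes after Pam3, 2 of 18 SREBP and fatty acid genes were lower (Fads1 -0.22, Erg28 -0.18, values log2). So were 3 of 14 uptake and sterol transport genes (Lipa -0.28, Nceh1 -0.26, Scarb1 -0.12). In the list of LXR receptors and targets, which also holds sterol enzymes, 3 of 13 were lower (Cyp27a1 -0.36, Abca9 -0.39, Rxra -0.22). In these lists 0 were higher, against 2.75% lower and 1.31% higher over all genes. Lipa is the lysosomal acid lipase that frees cholesterol from lipoprotein esters, Scarb1 an HDL receptor and Cyp27a1 a sterol hydroxylase.

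The Pam3 response itself was smaller in Ninj1KO than in WT macrophages for 3 of the 34 genes, all of which rose. By sign, the Ninj1KO response minus the WT response was called below 0 for 3 genes and above 0 for 0. Over all genes tested these shares were 0.589% and 0.173%. A difference below 0 is a smaller rise or a larger fall in Ninj1KO macrophages. For Insig1 the Ninj1KO response minus the WT response was -0.29 (SE 0.0607, edgeR adjusted p = 0.0212) on the log2 scale. It was -0.25 (SE 0.0568, adjusted p = 0.0382) for Nsdhl and -0.21 (SE 0.0472, adjusted p = 0.0264) for Lss by the same edgeR test. In sign 30 of 34 genes lay below 0, with a median of -0.17 over the 34 genes and -0.02 over all genes tested. At an unadjusted p under 0.05 in the edgeR fit, 12 lay below 0 and 0 above, against 8.09% and 4.16% of all genes. These 12 include Apoe, which fell more in Ninj1KO macrophages, and Npc2, which was called lower in Ninj1KO macrophages only. DESeq2 called 5 below 0 and 0 above, against 1.58% and 0.527%. Without WT_Pam3 replicate 5, 8 were called below 0 and 0 above, against 3.03% and 0.700% of all genes. These 8 include Npc1 (-1.20 in Ninj1KO and -1.05 in WT) and Npc2 (-0.20 and -0.05), whose falls were larger in Ninj1KO macrophages. Without Ninj1KO_NoPrime replicate 1, which held the highest value of its group for 21 of the 34 genes, 1 was called below 0 (Insig1), against 0.666% of all genes. With no filter on low counts 0 were called below 0, against 0.149%. Without that replicate the difference was -0.19 for Lss and -0.20 for Nsdhl, neither called, and without replicates 4 and 6 of the same group it was -0.18 for Lss, again not called. Mvd (-0.44, edgeR adjusted p = 0.0632) and Fdft1 (-0.42, adjusted p = 0.0872) had larger differences than these 3 genes but wider errors (SE 0.114 and 0.118). For Tm7sf2, Lbr and Npc2, which passed the Pam3 test in Ninj1KO macrophages and not in WT, the difference of responses did not pass (edgeR adjusted p = 0.439, 0.713 and 0.198). Leaving out WT_Pam3 replicate 5 gave -0.15 and an edgeR adjusted p of 0.0315 for Npc2, which ranged from 0.0315 to 0.472 over the alternatives.

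In media, 0 of the 34 genes passed the edgeR test between genotypes in either direction, where 1.92% of all genes were higher and 1.12% lower in Ninj1KO macrophages. At an unadjusted p under 0.05, 3 were higher (Fdft1, Npc2 and Abcg1) and 1 lower (Soat1), against 6.91% and 6.05% of all genes. DESeq2 called 2 higher and 0 lower, against 2.74% and 2.02%. The median log2 difference was 0.00 over the 34 genes and -0.00 over all genes tested, and 18 genes lay above 0. By libraries, 2 genes had every Ninj1KO_NoPrime value above every WT_NoPrime value, against 2.16% of all genes tested, and 1 had them below, against 2.11%. The first were Abcg1, at 285 to 314 CPM in Ninj1KO_NoPrime and 266 to 284 CPM in WT_NoPrime libraries (log2 0.14, SE 0.0414, edgeR adjusted p = 0.0679), and Npc2, at 1574 to 1704 and 1419 to 1519 CPM in the same groups. Soat1 was the gene below, at 524 to 544 CPM in Ninj1KO_NoPrime and 571 to 597 CPM in WT_NoPrime libraries (log2 -0.12, SE 0.0536, edgeR adjusted p = 0.302). When WT_Pam3 replicate 5, which enters the shared estimate of the spread, was left out, 3 were higher (Fdft1, Npc2 and Abcg1) and 2 lower (Soat1 and Abca1), against 4.52% and 4.23% of all genes. The same counts, 3 higher and 2 lower, came from the 2 media groups fitted alone, against 4.17% and 3.81% of all genes. Abca1 had 660.4 to 761 CPM in Ninj1KO_NoPrime and 759 to 866 CPM in WT_NoPrime libraries, which overlap, and a log2 difference of -0.19 with all libraries (SE 0.140, edgeR adjusted p = 0.677, and 0.00846 to 0.774 over the alternatives).

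In media 0 of the 20 enzymes were free of overlap between genotypes. Over all genes tested 2.16% lay above and 2.11% below without overlap, so this count does not set the enzymes apart. Insig1 averaged 110.5 ± 7.85 CPM in Ninj1KO_NoPrime and 114 ± 2.53 CPM in WT_NoPrime libraries, and Lss 30.3 ± 1.13 CPM in Ninj1KO_NoPrime and 30.6 ± 1.28 CPM in WT_NoPrime libraries (SD, n = 6 each), differences within the spread of the libraries. Among further genes, 2 of 14 uptake and sterol transport genes were lower in Ninj1KO_NoPrime, against 1.12% of all genes. These were the scavenger receptors Cd36 (-0.34, SE 0.0596) and Msr1 (-0.20, SE 0.0440), on the log2 scale. In these groups 8 granulocyte markers summed to 82.4 to 95.0 CPM in Ninj1KO_NoPrime and 60.6 to 71.4 CPM in WT_NoPrime libraries, and 7 stromal and endothelial markers to 49.5 to 89.4 CPM in Ninj1KO_NoPrime and 36.3 to 46.2 CPM in WT_NoPrime libraries. Their part in the sterol values was not tested.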

How the data were processed

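Libraries were made from polyA RNA with a TruSeq v2 kit that leaves strand unmarked, then sequenced as single 50 bp ends, per the labels' protocols. GSNAP and GRCm38 are named in the submitters' processing notes. The deposited count column holds reads aligned uniquely to each gene model, per the file headers, and the deposited RPKM column is adjusted by a size factor; RPKM served to set levels of genes side by side and as an alternative. GENCODE M21 gave symbols to 52489 of 52636 gene models, and the other 147 held 0.003874% of reads. edgeR 4.0.16 in R 4.3.3 fitted the counts of all 24 libraries with a mean per group, TMM factors, filterByExpr and no covariate, using its quasi-likelihood test, with Benjamini-Hochberg adjustment over 14435 genes and a threshold of 0.05. SE is the log2 fold change over the root of F. The fit was also run on simulated counts with the same spread for every gene and no Pam3 effect, unlike these data. That run checks the procedure only and not the results given here. Alternatives were DESeq2 1.42.0, other scalings, no filter, the compared groups alone and left-out libraries. The rule for the members uses symbols alone, but members, lists and libraries left out were settled with earlier results of these data known. All 34 members were named, with values by library for those with a log2 response of at least 1 or a call between genotypes, and up to 4 further pathway genes per list in each comparison. Promoters are RefSeq's, on GRCm38.p6.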

Additional observations from a re-analysis of the deposited data

Results flagged for a closer look

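Within groups of 6 libraries, 25 of 136 gene and group combinations held a library far from the other 5 by Dixon's criterion, where chance gives about 1 in 20. Of these, 18 were WT_Pam3 replicate 5. That library was highest of its group for Acat2 (60.7 CPM), Mvk (54.7 CPM), Pmvk (90.1 CPM), Mvd (180.4 CPM), Fdps (7.27 CPM), Tm7sf2 (9.88 CPM), Ebp (49.5 CPM), Npc2 (1992 CPM), Nr1h3 (181 CPM) and Apoe (8925 CPM). It was lowest for Hmgcs1 (376 CPM), Hsd17b7 (122 CPM), Sc5d (233 CPM), Srebf2 (584 CPM), Soat1 (132 CPM), Npc1 (163 CPM), Abca1 (299 CPM) and Abcg1 (79.2 CPM). Ninj1KO_NoPrime replicate 1 was highest of its group for Hmgcs1 (143 CPM), Cyp51 (84.0 CPM), Srebf2 (264 CPM) and Ch25h (0.515 CPM). Ninj1KO_Pam3 replicate 6 was highest for Acat2 (41.7 CPM) and Ebp (35.0 CPM), and WT_NoPrime replicate 3 was lowest for Ebp (34.9 CPM).

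The Pam3 response differed between genotypes by the interaction test of edgeR for Insig1 (-0.295 log2, Ninj1KO minus WT), Nsdhl (-0.245 log2) and Lss (-0.2144 log2).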

How the results depend on the processing

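Counts of sterol genes called moved with these settings, in each case with the cause not tested. Shares over all genes stand beside the same counts in the results above, with these exceptions. No share is given for the count after Pam3 without a filter or for the count in RPKM. With library size alone, none is given for media or for the difference of responses. Counts without a share say nothing about the sterol genes in particular. With library size alone, 14 were lower with Pam3 in WT, 1 higher and 3 lower between genotypes after Pam3, 1 higher in media, and 1 below 0 in the difference of responses. Srebf1 reversed, to -0.20 in Ninj1KO and -0.21 in WT. Without a filter on low counts, 3 were lower after Pam3, and in the difference of responses 0 were called below 0. DESeq2 gave 2 higher in media and 5 below 0 in the difference of responses. With the compared groups alone, 2 were lower after Pam3, and 3 higher and 2 lower in media. Without WT_Pam3 replicate 5, 14 were lower after Pam3, 3 higher and 2 lower in media, 8 below 0 in the difference of responses, and 13 sterol genes were lower without overlap, an alternative chosen after seeing the data for the last. Without Ninj1KO_NoPrime replicate 1 the response was smaller for 1 gene. In the deposited RPKM, 1 gene was higher in media without overlap. Of 71 results on called single genes, 70 kept direction and call with RLE factors and 70 with DESeq2, 63 with library size alone, 64 without the filter, 71 without WT_Pam3 replicate 5, 69 without Ninj1KO_NoPrime replicate 1 and 68 without replicates 4 and 6 of that group, and 63 of 68 did with the compared groups alone. No paired analysis was possible because replicate numbers follow accession order and pair nothing. Low counts limit Fdps, Idi1 and, in media, Ch25h.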
